A study of Mus musculus with 89 samples.

Results

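The comparison described here is the change in the lungs of BALB/c mice 168 h after a challenge with Aspergillus fumigatus (Af), a mould whose proteins act as airway allergens, against BALB/c mice that only breathed air. The arrays were taken by their titles: 6 arrays of the Af 168 h group with air and 5 arrays of the air group, 11 of the 89 arrays of the series. The whole series has 18 groups from BALB/c, C57BL/6 and SP-D-/- mice (which lack surfactant protein D), given air, ozone, Af or Af and ozone. Af was injected into the abdomen on days 0 and 7 to sensitize the mice, and the challenge on day 13 was intranasal. They breathed air for 2 h before they were killed 12 h later. The air mice had the same 2 h of air and the same 12 h wait, and their labels name no Af treatment, so sensitization, challenge and time after challenge cannot be told apart. All mice of both compared groups were males of 7 to 8 weeks with no altered gene, and RNA came from the perfused left lobe, homogenized whole. In such bulk tissue, fewer cells of a type and less RNA per cell cannot be told apart. Only replicate numbers say that arrays of a group are separate mice, so p-values measure the spread between arrays, which may in part be technical. For the tests of single genes this spread was pooled within the 18 groups of all 89 arrays, not taken from the 11 alone.

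In a sensitized lung, inhaled allergen calls up a type 2 response, in which interleukin 4 and interleukin 13 act through STAT6. Airway epithelial cells then turn into mucus-producing goblet cells, macrophages take on an alternatively activated state with secretion of resistin-like and chitinase-like proteins, and eosinophils, monocytes and antibody-producing cells gather. Epithelial injury and acute-phase proteins belong to the early phase, and mucus, plasma cells and tissue macrophages to the later one.

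Lung markers were at the levels of lung tissue on all 11 arrays. Surfactant protein C (Sftpc, of alveolar type 2 cells) lay between 12.52 and 13.20, secretoglobin 1a1 (Scgb1a1, of club cells) between 12.80 and 13.39, and Ager (of alveolar type 1 cells) between 11.40 and 12.26, on a log2 scale that ended at 13.54. Across the series, 5 arrays had strain genes or Sftpd, the gene disrupted in SP-D-/-, against their labels, and 0 of these were among the 11. All arrays had the same median of 4.90, which the authors' normalization set. The log2 difference between the 3' and 5' beta-actin control probe sets, a measure that rises as RNA is shortened, was 1.71 ± 0.36 (SD, n = 5) in air and 2.83 ± 0.37 (SD, n = 6) at Af 168 h. This difference exceeded the spread between arrays (two-sided exact permutation test, p = 0.00866, and 0.0130 adjusted over 3 array measures). Hybridization control probe sets averaged 10.61 ± 0.45 in air and 11.36 ± 0.84 at Af 168 h (exact permutation p = 0.117). The mean of 12 skeletal muscle genes was 7.78 ± 2.46 in air and 4.23 ± 0.16 at Af 168 h (exact permutation p = 0.00433, the smallest this design allows, adjusted p 0.0130).

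**Figure D1:**
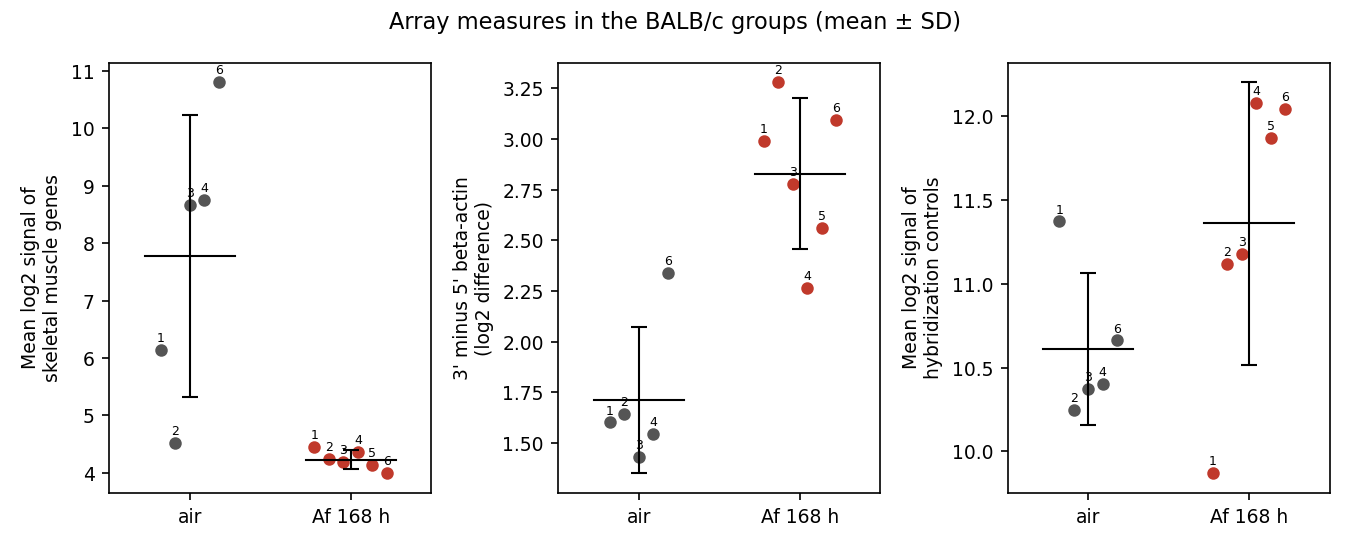
Array measures in the 5 air and 6 Af 168 h arrays of BALB/c mice, in log2 units; each point is 1 array with its replicate number, and the lines are means with SD. The skeletal muscle mean spread from 4.53 to 10.80 in air and from 3.995 to 4.45 at Af 168 h, and the beta-actin difference was 1.43 to 2.34 in air and 2.26 to 3.28 at Af 168 h, where only air replicate 6 reached the Af range.

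At Af 168 h the lung held far more RNA of Clca1, Slc26a4, Retnla, Mmp12, Jchain, Chil3 and Chil4 than in air. Each was 1 of at most 3 called members of its list, and Slc26a4 was the only one of its list. The lung held less RNA of all 12 skeletal muscle genes tested and of the regulators Zbtb16 and Dbp. Of 15065 genes tested by limma, 122 rose (0.81%) and 113 fell (0.75%) at a Benjamini-Hochberg adjusted p under 0.05, and 2253 had an unadjusted p under 0.05. The change exceeded 4-fold for 27 rises and 35 falls. Values of the groups did not overlap for 77 of the 122 rises and 78 of the 113 falls, against 1093 of all tested genes (7.26%). The beta-actin difference and the muscle level moved with the groups. With the first as a covariate 29 genes rose and 28 fell, among them 26 of the 122 and 26 of the 113. With the muscle level as a covariate, an alternative chosen after seeing the data, 67 rose and 29 fell, among them 62 and 23. Their part in the other calls was not tested. The count also moved with single arrays. Without Af 168 h replicate 6 it was 71 genes instead of 235, and without replicates 5, 4, 2 and 1 it was 129, 145, 379 and 353. Without air replicates 3, 4, 2 and 6 it was 84, 94, 147 and 152. Across 21 alternatives, 21 of the rises and 6 of the falls were called every time.

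**Figure D2:**
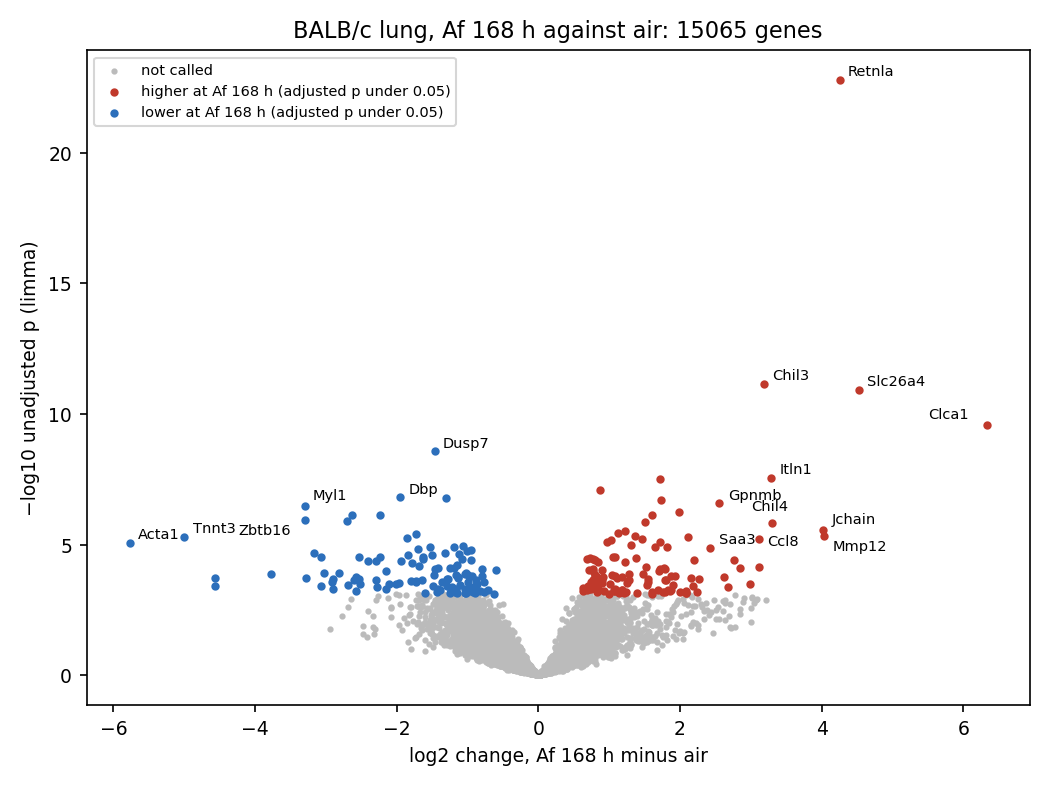
Log2 change (Af 168 h minus air, x axis) against the −log10 of the unadjusted limma p (y axis) for 15065 genes in BALB/c lung; red genes rose and blue genes fell at an adjusted p under 0.05. Retnla stands highest, Clca1 farthest to the right with a change of 6.33, and Acta1 farthest to the left with -5.77.

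Goblet cell and mucus genes showed the largest rise of all. Clca1 encodes a protein that goblet cells secrete with mucus. In air it measured 4.74, 3.30, 3.47, 3.70 and 3.66 (log2 signal, here and below in the order of air replicates 1, 2, 3, 4 and 6), and at Af 168 h it ran from 7.62 to 11.44 with a median of 10.86. Every Af array was above every air array, and replicates 1 and 2 at 8.53 and 7.62 stayed below the other Af arrays. The log2 change was 6.33 ± 0.87 (SE), or 80.7-fold, with an adjusted p of 9.88e-07. The air mean lay below 4.45, the level used to filter dim genes, so this fold rests on a near-background signal. A dimmer second Clca1 probe set changed by 1.01.

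Itln1, an intelectin, which is a sugar-binding protein of mucus, measured 4.52, 4.16, 3.53, 4.29 and 4.12 in air and 5.79 to 8.85 (median 7.80) at Af 168 h. Here too replicates 1 and 2, at 6.14 and 5.79, were the lowest Af arrays, and the groups did not overlap. The change was 3.29 ± 0.53, with an adjusted p of 6.53e-05. The air mean of Itln1, 4.12, also lay below the filter level, so this change too rests on a near-background signal. Bpifb1, a secreted airway protein, rose by 1.88 ± 0.52 (adjusted p = 0.0430), a call lost under 14 of 21 alternatives. Of 14 goblet cell and mucus genes tested, 3 rose, 0 fell and 12 lay above 0, and their median change was 0.87 against -0.03 over all genes tested.

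Ion transport in the airway was marked by Slc26a4, pendrin, an exchanger of chloride, bicarbonate and thiocyanate. It was near its floor in air at 4.42, 4.33, 4.47, 4.45 and 4.35. At Af 168 h it lay between 7.96 and 9.88, with a median of 8.80, and no array came near the air range. The change was 4.52 ± 0.57, or 23.0-fold (adjusted p = 5.82e-08). It was the only call among 9 ion transport genes (median change 0.28). Fxyd4, a regulator of the sodium pump that is in none of the lists, rose by 2.77 ± 0.63 (adjusted p = 0.00902). Its air mean of 4.11 lay below the filter level.

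Alternatively activated macrophages are marked by Retnla, which encodes resistin-like molecule alpha. It measured 8.59, 7.17, 8.07, 8.55 and 8.69 in air and 12.26 to 12.80 (median 12.35) at Af 168 h. The Af arrays were tightly grouped, with an SD of 0.26, and the groups were far apart. Af replicates 1 and 2 shared the value 12.80 and replicates 3 and 4 the value 12.26, near the top of the scale at 13.54. The part of the normalization in this narrow spread was not tested. The change of 4.25 ± 0.29, or 19.1-fold, had the smallest p of all genes tested (adjusted p = 2.43e-19). Msr1, a scavenger receptor, rose by 0.93 ± 0.26 (adjusted p = 0.0442, lost under 12 of 21 alternatives). These were 2 of 11 genes of the list, whose median change was 0.25, so most of its members showed no such shift.

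Among chitinase-like proteins, which bind chitin without cutting it, Chil3 measured 9.28, 8.86, 8.63, 8.61 and 7.95 in air and 11.48 to 12.06 (median 11.91) at Af 168 h. Chil4 measured 7.98, 7.27, 7.19, 9.38 and 5.63 in air and 10.49 to 11.09 (median 10.82) at Af 168 h. Both had narrow Af groups, with an SD of 0.22 each, while the air arrays of Chil4 spread over more than 3 log2 units. Chil3 rose by 3.18 ± 0.39 (adjusted p = 5.15e-08) and Chil4 by 3.31 ± 0.63 (adjusted p = 0.00112). A dimmer second Chil4 probe set went from 4.98 to 9.08, a change of 4.09. Chil3 and Chil4 are close copies of each other and a probe set may read both, so they may not be independent rises. The other 4 genes of the list were not called, and its median change was 0.85.

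**Figure D3:**
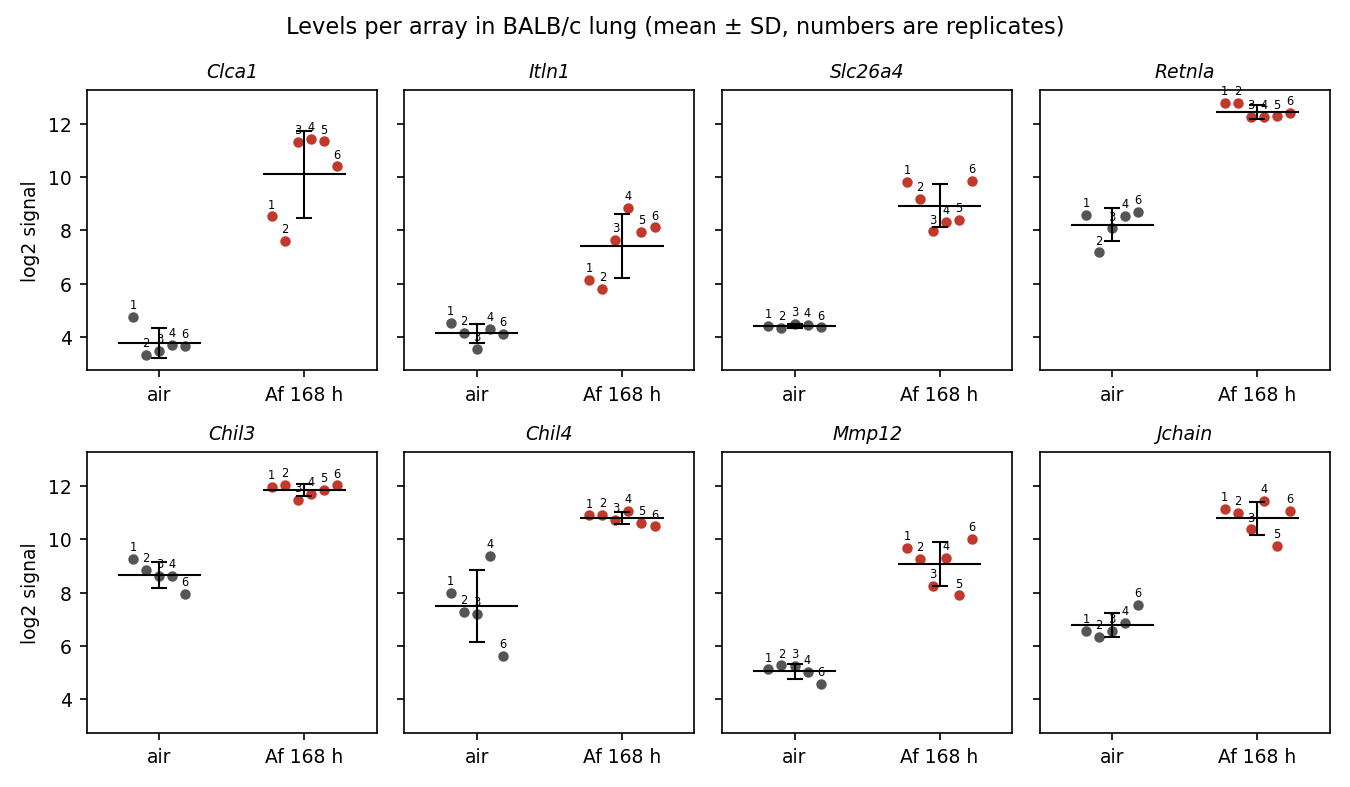
Log2 signal of 8 genes with large rises in the 5 air arrays (grey) and the 6 Af 168 h arrays (red) of BALB/c lung; points are arrays with their replicate numbers, and lines are means with SD. The groups do not overlap for any of the 8, and the Af arrays of Clca1 and Itln1 are lowest for replicates 1 and 2.

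Among alveolar macrophage, lipid and lysosome genes, 3 rose. Mmp12, the macrophage elastase, measured 5.11, 5.26, 5.24, 5.01 and 4.57 in air and 7.89 to 10.03 (median 9.28) at Af 168 h. Gpnmb, a membrane protein of lipid-loaded macrophages, measured 6.37, 5.71, 5.97, 5.99 and 6.02 in air and 7.61 to 10.10 (median 8.48) at Af 168 h. In both genes replicate 6 was the highest Af array and replicate 5 the lowest, and all Af arrays were above all air arrays. Mmp12 rose by 4.03 ± 0.82 (adjusted p = 0.00264) and Gpnmb by 2.56 ± 0.45 (adjusted p = 0.000327). Lgals3, galectin-3, rose by 1.37 ± 0.28 (adjusted p = 0.00264). The other 14 of the 17 genes tested were not called, 6 lay below 0, and the median change was 0.29.

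A chemokine, a monocyte receptor and a fungal receptor were each the only call of their list. Ccl8, a chemokine that draws Ccr8-bearing T cells, measured 4.91, 5.20, 4.92, 4.73 and 4.44 in air and 6.55 to 9.71 (median 8.09) at Af 168 h. Its change of 3.11 ± 0.64 (adjusted p = 0.00297) came with a wide Af group, whose highest array was replicate 1 and lowest replicate 5. The other 7 eosinophil-attracting chemokine genes were not called, 4 of the list lay below 0, and its median change was -0.01. Ccr2, the receptor that brings monocytes from blood to tissue, rose by 1.98 ± 0.36 (adjusted p = 0.000590), from 6.65 ± 0.38 in air to 8.63 ± 0.93. It was the only call of 12 interstitial macrophage and monocyte genes, of which 6 lay below 0 (median change 0.01). Clec7a, dectin-1, the receptor for fungal beta-glucan, rose by 1.72 ± 0.36 (adjusted p = 0.00356), as 1 of 11 fungal and pattern recognition genes (median change 0.20). Several further genes, chosen after their values were seen because they were called under every alternative, belong to myeloid cells: the chemokine Ccl9 rose by 1.81 ± 0.39, the receptor Cd300lb by 1.51 ± 0.29 and the lectin Cd209e by 1.31 ± 0.28. Cd209e remained dim in both groups, with means of 2.71 and 4.02.

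Among plasma cell and antibody genes, Jchain rose most. Jchain, the joining chain of polymeric IgA and IgM, measured 6.57, 6.34, 6.57, 6.87 and 7.55 in air and 9.77 to 11.46 (median 11.03) at Af 168 h. The lowest Af array, replicate 5, was still more than 2 log2 units above the highest air array. The change was 4.02 ± 0.79, or 16.2-fold (adjusted p = 0.00185). Pigr, the epithelial receptor that carries polymeric antibody into the airway, rose by 1.78 ± 0.43 (adjusted p = 0.0149). Eaf2, a partner of transcription elongation factors, rose by 1.52 ± 0.36 (adjusted p = 0.0140). Of 11 plasma cell and antibody genes these 3 rose and 0 fell (median change 0.25), and Pigr and Eaf2 were not called with the beta-actin or the muscle covariate. The kappa light chain segments Igkj1 and Igkv6-15, chosen after their values were seen, rose by 2.11 ± 0.43 and 1.73 ± 0.30 (adjusted p = 0.00278 and 0.000259). Antibody segments are near-identical copies, so their probe sets may share transcripts. B cell markers did not follow: 0 of 9 genes were called, with Cd79a at 0.17 ± 0.28 and Cd79b at 0.19 ± 0.53, though all 9 lay above 0 (median 0.34) and 1 had an unadjusted p under 0.05.

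The lists of acute-phase, MHC class II, dendritic cell and cell cycle genes each held 1 call. Saa3, an acute-phase apolipoprotein, measured 7.03, 6.04, 5.88, 5.28 and 6.09 in air and 7.55 to 9.67 (median 8.39) at Af 168 h. Its groups did not overlap, and the change was 2.43 ± 0.52 (adjusted p = 0.00479). H2-Aa, a chain of MHC class II, rose by 0.91 ± 0.22 (adjusted p = 0.0165) as 1 of 11 genes of its list, while another H2-Aa probe set at a like level changed by 0.28. Fscn1, an actin-bundling protein of mature dendritic cells, rose by 0.83 ± 0.23 (adjusted p = 0.0449, 1 of 8 dendritic cell genes). Mki67, a marker of dividing cells, rose by 1.25 ± 0.33 (adjusted p = 0.0298) as 1 of 29 cell cycle genes, of which 25 lay above 0 and 8 had an unadjusted p under 0.05 (median change 0.37). The calls of H2-Aa, Fscn1 and Mki67 were each lost under several alternatives, the beta-actin covariate among them, where Bub1 was the called cell cycle gene. Of 12 inflammatory chemokine and cytokine genes 0 were called, 3 had an unadjusted p under 0.05 and 11 lay above 0, and the list mean was 4.15 to 4.45 in air and 4.62 to 4.96 at Af 168 h.

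Markers of several leukocytes known from allergic lungs did not pass the test. Of 4 tested eosinophil markers 0 were called by limma and 2 had an unadjusted p under 0.05. The interleukin 5 receptor Il5ra was at 1.35 ± 0.48 (adjusted p = 0.129) and Siglecf at -0.50 ± 0.36 (adjusted p = 0.540). The eosinophil list mean was 4.18 to 4.80 in air. It was 5.66 and 5.55 on Af replicates 4 and 5 and 4.32 to 4.74 on the other Af arrays. The lists of neutrophil, T cell, NK and cytotoxic, and mast cell and basophil genes held 11, 15, 11 and 6 tested members and 0 calls, with median changes of 0.39, 0.15, 0.02 and -0.19 and with 2, 1, 1 and 3 unadjusted p under 0.05. Of 12 type 2 cytokines and receptors 0 were called (median 0.32, 3 with an unadjusted p under 0.05). The epithelial alarmin Il33 changed by 0.36 ± 0.60, and its Af arrays spread from 6.63 to 9.17. At these errors, pooled over all groups of the series, a change of about 1 log2 unit in such genes was often not detectable. In data simulated with that pooled spread, 37% of genes changed by 1 log2 unit were called and 83% of those changed by 2. The spread of the compared arrays alone was not simulated.

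Of the 15 largest rises, 5 were genes dim in air whose groups overlapped. They were Nrk, a kinase best known from placenta, Prl7a1 and Prl7a2, placental hormones of the prolactin family, Crisp3, a secreted cysteine-rich protein, and S100a7l2 of the S100 family. Nrk measured 3.39, 3.53, 3.85, 2.88 and 3.12 in air, but 3.27 and 4.60 on Af replicates 1 and 2 and 6.54 to 9.01 on the others. S100a7l2 was likewise 4.69 and 4.87 on Af replicates 1 and 2, inside its air range, and 7.81 to 9.65 on replicates 3 to 6. Their changes ran from 2.62 ± 0.66 for Prl7a2 to 3.12 ± 0.74 for Nrk, and all 5 calls were lost with the beta-actin covariate. The hybridization control level was 9.87 on replicate 1, 11.12 on replicate 2 and 11.18 to 12.08 on replicates 3 to 6. With that level as a covariate the calls of Prl7a1, Prl7a2 and S100a7l2 were lost and those of Nrk and Crisp3 were not.

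The promoters of the 4 largest rises with an entry in the RefSeq table are shown because these genes lead the comparison. Each covers 300 bases, from 250 before to 50 after the annotated gene start, on the gene's strand in GRCm38.p6. The window of Slc26a4 is chr12:31559935-31560234 on the minus strand, that of Retnla chr16:48842359-48842658 on the plus strand, and that of Jchain chr5:88527848-88528147 on the minus strand. Mmp12 has a pair of annotated starts on the plus strand, with windows chr9:7344147-7344446 and chr9:7347124-7347423. Capitals mark a match to TTC, any 4 bases and GAA, the spaced palindrome that STAT6 is known to bind, searched on both strands, which hold it at the same place.
Slc26a4: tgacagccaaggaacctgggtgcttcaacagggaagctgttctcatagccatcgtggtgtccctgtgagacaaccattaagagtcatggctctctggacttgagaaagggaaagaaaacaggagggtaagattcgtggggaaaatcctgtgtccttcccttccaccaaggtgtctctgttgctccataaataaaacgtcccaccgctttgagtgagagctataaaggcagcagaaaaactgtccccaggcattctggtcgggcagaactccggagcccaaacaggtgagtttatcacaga
Retnla: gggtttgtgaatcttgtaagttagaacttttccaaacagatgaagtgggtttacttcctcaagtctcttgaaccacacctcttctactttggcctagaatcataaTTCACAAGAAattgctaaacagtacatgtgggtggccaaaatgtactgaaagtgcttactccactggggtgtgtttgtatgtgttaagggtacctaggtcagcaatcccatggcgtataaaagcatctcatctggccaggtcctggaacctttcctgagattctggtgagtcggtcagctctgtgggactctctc
Mmp12, upstream start: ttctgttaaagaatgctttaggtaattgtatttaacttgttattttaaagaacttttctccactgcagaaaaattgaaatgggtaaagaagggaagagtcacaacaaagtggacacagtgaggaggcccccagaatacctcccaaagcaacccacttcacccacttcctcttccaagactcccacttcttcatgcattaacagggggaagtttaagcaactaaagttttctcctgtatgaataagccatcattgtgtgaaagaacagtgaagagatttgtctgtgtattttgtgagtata
Mmp12, downstream start: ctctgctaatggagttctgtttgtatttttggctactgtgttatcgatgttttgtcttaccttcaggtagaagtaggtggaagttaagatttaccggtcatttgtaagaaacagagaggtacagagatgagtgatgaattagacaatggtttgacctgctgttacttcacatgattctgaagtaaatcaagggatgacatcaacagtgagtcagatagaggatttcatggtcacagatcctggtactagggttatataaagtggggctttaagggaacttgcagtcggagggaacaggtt
Jchain: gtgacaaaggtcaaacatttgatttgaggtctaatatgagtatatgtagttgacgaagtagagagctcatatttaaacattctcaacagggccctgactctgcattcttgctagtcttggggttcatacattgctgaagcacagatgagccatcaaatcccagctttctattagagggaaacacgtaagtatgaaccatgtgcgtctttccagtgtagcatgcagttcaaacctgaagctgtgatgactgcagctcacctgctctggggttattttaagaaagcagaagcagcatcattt
Retnla held 1 match, which began 145 bases before the gene start, and the other 4 windows held 0. The same motif occurred in 2284 of 32851 promoter windows of that length (6.95%), and in 2 of 14 named rises with a window, Retnla and Crisp3. A match describes letters only.

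**Figure D4:**
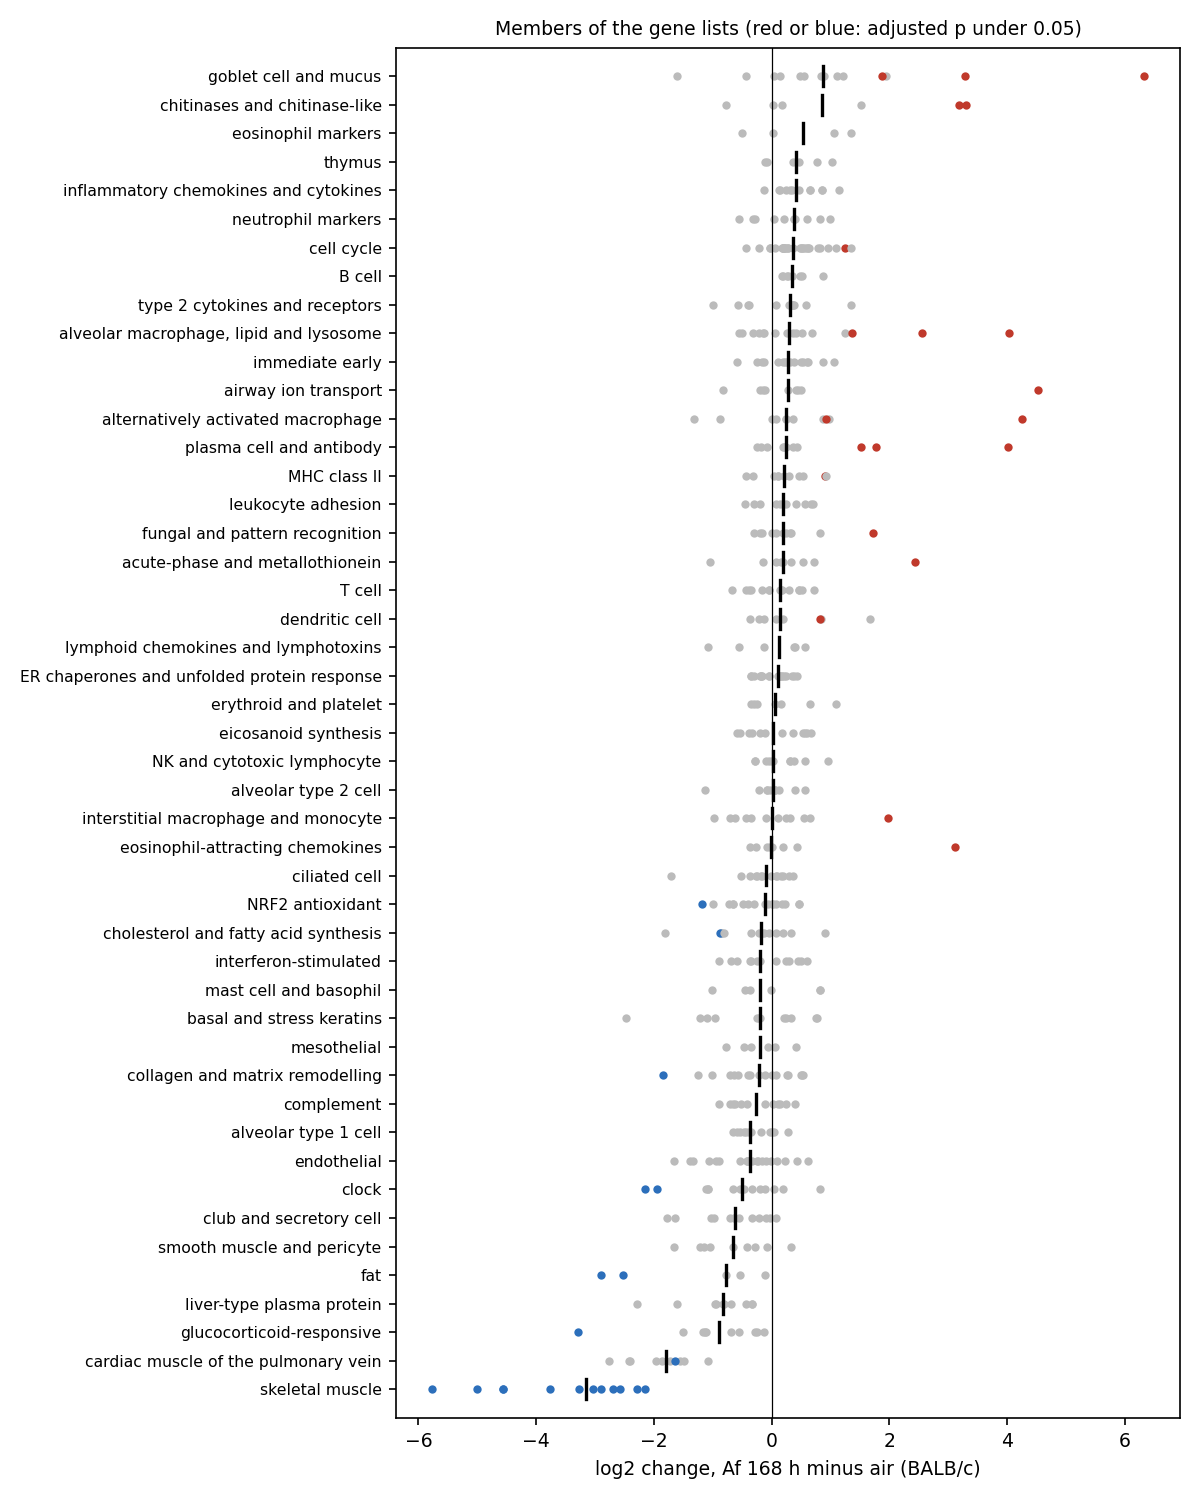
Log2 change (Af 168 h minus air in BALB/c, x axis) of each tested member of 47 gene lists, ordered by the list's median (black bar); red members rose and blue members fell at an adjusted p under 0.05, and grey members did not pass. Skeletal muscle is the list with every member called, and most lists with red points have medians near 0.

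Skeletal muscle genes made up the largest falls. All 12 genes of the list fell, with changes from -5.77 to -2.15 and a median of -3.15. With the beta-actin covariate the median was -3.21 and 2 of the 12, Acta1 and Tnnt3, stayed called, and with the muscle level as a covariate 0 did. Acta1, skeletal muscle actin, measured 8.03, 5.81, 11.52, 11.70 and 12.24 in air and 3.50 to 4.78 (median 3.93) at Af 168 h. The air arrays did not form 1 level: replicates 3, 4 and 6 were high, replicate 1 was lower and replicate 2 came within about 1 log2 unit of the Af arrays. The change of Acta1 was -5.77 ± 1.21 (adjusted p = 0.00364), and those of the fast troponin genes Tnnt3, Tnnc2 and Tnni2 were -5.00 ± 1.02, -4.56 ± 1.17 and -3.77 ± 0.93. Values for Tnnc2 and Tnni2 overlapped, as did those of the myosin gene Myh1, through air replicate 2. Of the 15 largest falls, 13 were muscle genes of this kind, with Myl1, Mylpf, Klhl41, Ckmt2, Ttn, Pvalb, Pgam2 and Atp2a1 falling by 2.90 to 3.30. In air mice of the other strains Acta1 averaged 5.59 ± 2.96 (SD, n = 6) in C57BL/6, with a range from 3.82 to 11.61, and 4.69 ± 0.22 (SD, n = 5) in SP-D-/-, against 9.86 ± 2.81 in BALB/c air. These levels were not tested against each other. The Af 168 h arrays were all low, with an SD of 0.52 for Acta1, so the spread lay almost wholly in the air arrays.

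Genes of heart-type muscle and fat stood with them. All 10 tested genes of cardiac muscle, which sheathes the pulmonary veins in mice, lay below 0 (median -1.79). Of these, 9 had an unadjusted p under 0.05. Their mean was 7.72 to 8.69 in air and 5.10 to 7.34 at Af 168 h. After adjustment 1 was called: Casq2, the calcium store protein calsequestrin 2, at -1.64 ± 0.42 (adjusted p = 0.0253). Myl4, an atrial myosin light chain, was 9.57 to 10.49 in air and 6.07 to 8.96 at Af 168 h, with a change of -2.41 ± 0.80 that missed the threshold (adjusted p = 0.101). Of 5 fat genes 2 fell. Adipoq, adiponectin, changed by -2.52 ± 0.67 (adjusted p = 0.0311), from 4.84, 5.14, 5.37, 3.60 and 5.35 in air to 2.11 to 2.56. Car3, a carbonic anhydrase of fat and muscle, changed by -2.90 ± 0.80 (adjusted p = 0.0416) on the brightest probe set, while 3 dimmer ones changed by -1.25, 0.71 and 0.99. With the skeletal muscle level as a covariate, Casq2, Adipoq and Car3 were no longer called.

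Zbtb16 and Dbp fell, and both were called with either covariate. Zbtb16, a transcriptional repressor that glucocorticoids induce, measured 8.61, 8.51, 4.87, 8.03 and 7.74 in air and 2.91 to 5.92 (median 4.25) at Af 168 h. Air replicate 3 fell within the Af range, and the other 4 air arrays lay above all Af arrays. The change was -3.29 ± 0.62 (adjusted p = 0.000930), and it was called under all 21 alternatives. It was the only call of 10 glucocorticoid-responsive genes, all of which lay below 0 (median -0.90, 5 with an unadjusted p under 0.05). The mean of that list was 8.14 to 9.27 in air and 7.39 to 7.97 at Af 168 h. Dbp, an output gene of the circadian clock, measured 6.99, 7.08, 7.26, 7.25 and 7.96 in air and 4.71 to 6.09 (median 5.38) at Af 168 h, with no overlap. It changed by -1.95 ± 0.34 (adjusted p = 0.000253). The core clock gene Per2 changed by -2.15 ± 0.59 (adjusted p = 0.0420), with Af arrays from 2.72 to 6.23, and this call was lost under 13 of 21 alternatives. Of 14 clock genes these 2 fell, 11 lay below 0 and 7 had an unadjusted p under 0.05 (median -0.50). The clock list mean was 6.81 to 6.95 in air and 5.87 to 6.64 at Af 168 h. The labels give no hour of day for the collections, so the part of collection time in Dbp and Per2 was not tested.

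Single members of further lists fell. Dcn, decorin, a collagen-binding proteoglycan, fell by 1.85 ± 0.38 (adjusted p = 0.00280), the only call of 17 collagen and matrix genes (median -0.21). Gclm, a subunit of the enzyme that starts glutathione synthesis, fell by 1.18 ± 0.28 (adjusted p = 0.0149) as 1 of 17 NRF2 antioxidant genes, and Srebf2, the regulator of cholesterol synthesis, by 0.88 ± 0.23 (adjusted p = 0.0253) as 1 of 14. Dcn, Gclm and Srebf2 were not called with the beta-actin or the muscle covariate. Among genes chosen after their values were seen because every alternative called them, Pcp4l1 fell by 2.24 ± 0.42, Dusp7, a phosphatase of ERK, by 1.46 ± 0.22, Tspan18 by 1.31 ± 0.23 and the kinase Map3k3 by 1.19 ± 0.25. The remaining alternative-dependent falls chosen after their values were seen included Scara5, a ferritin receptor, at -2.23 ± 0.50, Apod at -1.84 ± 0.41 and the glucose transporter Slc2a4 at -1.95 ± 0.45, all lost with both covariates.

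Several lists of structural cells held no call at 168 h. Among 13 club and secretory cell genes 0 were called, although 12 lay below 0 (median -0.62, 4 with an unadjusted p under 0.05) and their mean level did not overlap between groups, at 10.01 to 10.40 in air and 9.05 to 9.95 at Af 168 h. Scgb1a1 itself changed by 0.07 ± 0.22, close to the top of the scale. The lists of 14 ciliated, 10 alveolar type 2, 12 alveolar type 1 and 20 endothelial genes held 0 calls each, with medians of -0.09, 0.02, -0.36 and -0.36 and with 1, 1, 0 and 5 unadjusted p under 0.05. Of 9 smooth muscle and pericyte genes 0 were called (median -0.65, 4 with an unadjusted p under 0.05), with Acta2 at 0.33 ± 0.36. The other 12 lists with 0 calls, among them complement, interferon-stimulated, eicosanoid and chaperone genes, had medians from -0.82 for liver-type plasma proteins to 0.42 for thymus genes. Over all 47 lists, 527 genes were tested, of which 21 rose and 21 fell, 12 of the latter in the skeletal muscle list. The called share was 7.97%, against 1.56% of all genes tested, for lists chosen with this tissue and earlier results in view.

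The time after challenge was examined against the Af 24 h group with air (5 arrays of BALB/c males treated alike apart from the time). Both times share the air arrays, so their changes from air are set side by side and the times were compared directly. At 24 h, 591 genes were higher (3.92%) and 1225 lower (8.13%) than in air. Directly compared, 415 genes were higher (2.75%) and 242 lower (1.61%) at 168 h than at 24 h. Af 24 h replicates 4 and 5 had Sftpd at 8.79 and 7.68, below the wild-type limit of 9 used here, while the 11 arrays above ranged from 9.61 to 11.07. Their index of 40 strain genes, 0.17 and 0.55, lay on the BALB/c side, against 0.52 to 1.05 on the 11 arrays. Only Sftpd therefore went against the label. In the full fit 6 of 10 alveolar type 2 genes were lower than air at 24 h (median -1.08). In that fit 5 were higher at 168 h than at 24 h, with a median difference of 0.91. Without the 5 doubted arrays of the series 0 were called between the times, with a median difference of 0.07. The part of such an alveolar type 2 fall in these Sftpd levels was not tested. Over all genes, 54 were higher and 59 lower at 168 h without the 5 doubted arrays, and with only the arrays of both times fitted 18 and 2. Counts of the direct comparison also moved without single arrays, to 295 and 376 genes in place of 657 without Af 24 h replicates 4 and 5, and to 365, 393 and 407 without Af 168 h replicates 5, 4 and 3.

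Leading mucus, antibody and macrophage genes were higher at the late time. Clca1 changed by 0.87 ± 0.91 at 24 h, or by 1.88 ± 1.06 without the doubted arrays, and was higher at 168 h than at 24 h by 5.46 ± 0.87 (adjusted p = 3.69e-05, and 4.46 with an adjusted p of 0.0160 without the doubted arrays). Jchain differed by 4.58 ± 0.79, Mmp12 by 4.55 ± 0.82, Gpnmb by 2.39 ± 0.45 and Itln1 by 2.56 ± 0.53, each also called without the doubted arrays. There the differences were 3.67, 3.85, 2.31 and 2.52, with adjusted p of 0.0252, 0.0183, 0.00761 and 0.0235. None of these 5 genes was called at 24 h against air, with or without the doubted arrays. Chil3, Chil4, Clec7a and Pigr were higher at 168 h in the full fit but not without the doubted arrays, where the differences were 0.48, 0.97, 1.04 and 1.44. Other genes were already high at 24 h: Retnla had changed by 4.17, Slc26a4 by 4.36, Ccl8 by 3.35 and Fxyd4 by 3.13 from air, and by 4.72, 5.495, 4.09 and 4.27 without the doubted arrays. Their differences between the times were 0.09 ± 0.29, 0.16 ± 0.57, -0.23 ± 0.64 and -0.36 ± 0.63, or -0.47, -0.97, -0.97 and -1.51 without the doubted arrays, and were called in neither fit. Saa3 went the other way. It had changed by 4.81 at 24 h and was lower at 168 h by -2.38 ± 0.52 (adjusted p = 0.00312, and 0.0123 without the doubted arrays).

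Club cell genes were lower at 24 h and closer to air at 168 h. All 13 were lower than in air at 24 h (median -2.21), or 9 without the doubted arrays (median -2.03). Of the 13, 8 were higher at 168 h than at 24 h, and 4 without the doubted arrays. Scgb1a1 was among the 4, with a difference of 1.28 ± 0.22 (adjusted p = 0.000123, and 0.00813 without the doubted arrays). The list mean was 7.68 ± 1.25 (SD, n = 5) at 24 h, or 8.20 ± 0.43 on the 3 arrays not doubted, and 9.52 ± 0.42 (n = 6) at 168 h. Ciliated genes moved likewise, with 9 of 14 lower than air at 24 h (4 without the doubted arrays), 5 higher at 168 h than at 24 h, and 4 without the doubted arrays. Dbp, Zbtb16 and the muscle genes were not called between the times: Dbp differed by 0.23 ± 0.34, Zbtb16 by -0.77 ± 0.62 and Acta1 by -1.45 ± 1.21.

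Levels in the ozone groups of the same strain place these genes further. Retnla was 11.75 ± 0.09 in the 2 arrays given ozone alone and Saa3 10.49 ± 0.60, where Clca1, Mmp12 and Jchain were 3.26 ± 0.74, 5.70 ± 0.45 and 5.59 ± 1.33. In the Af 96 h group with ozone (6 arrays) Clca1 averaged 8.14 ± 1.96, Mmp12 8.99 ± 0.86 and Jchain 8.87 ± 1.08. In the Af 168 h group with ozone, without its doubted replicate 6, Clca1 was 9.78 ± 1.58, Mmp12 8.64 ± 0.86, Jchain 9.57 ± 1.03 and Saa3 10.43 ± 0.24 (n = 3). These levels are a description, and differences between the ozone groups were not tested here.

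**Figure D5:**
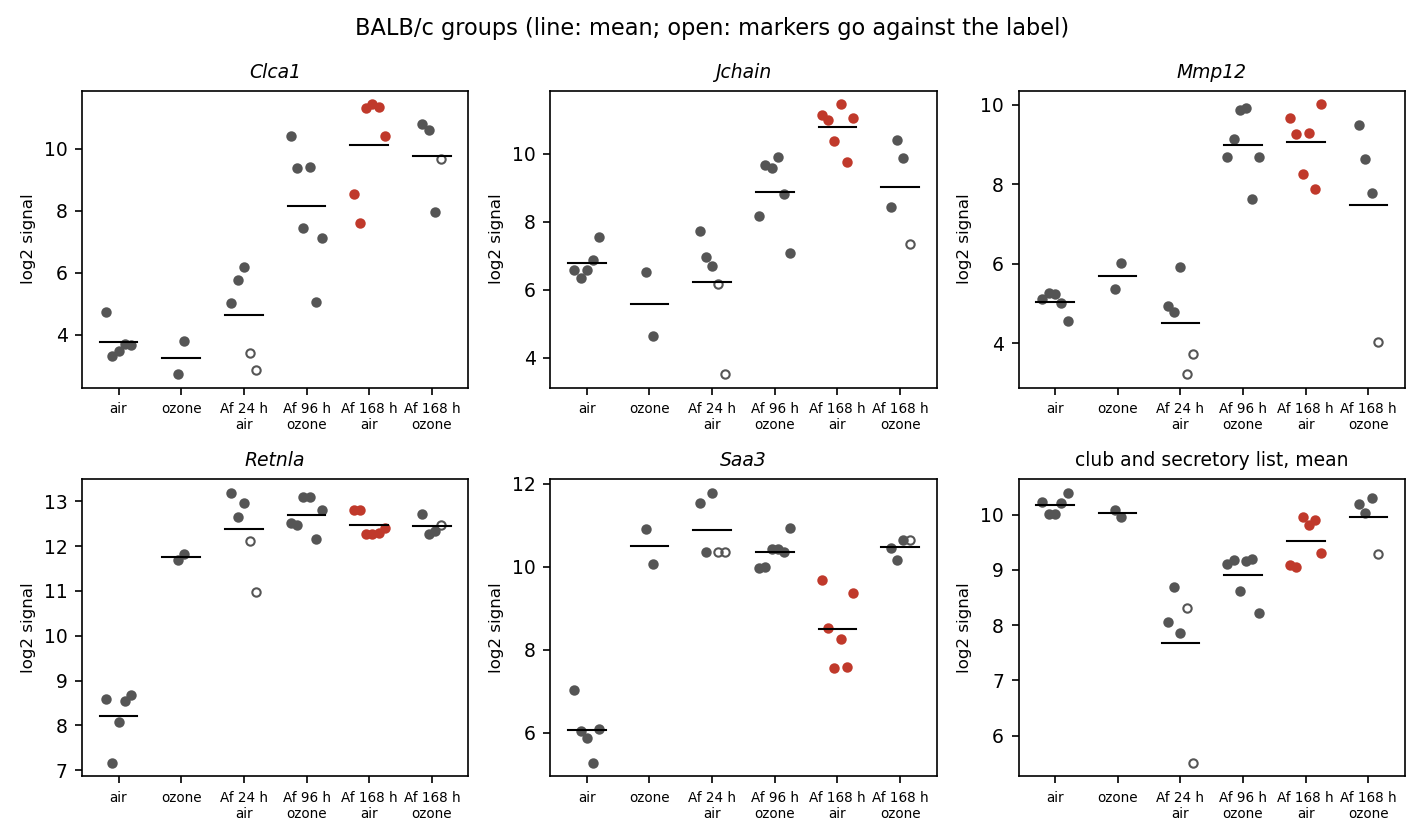
Log2 signal of 5 genes and the mean of 13 club and secretory cell genes in the 6 BALB/c groups; points are arrays, lines are means, red marks Af 168 h with air, and open points are arrays whose strain genes or Sftpd go against the label. Clca1, Jchain and Mmp12 are high from Af 96 h on, Retnla and Saa3 are also high in the other exposed groups, and the club cell mean is lowest at Af 24 h.

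The same contrast in C57BL/6 mice (4 Af 168 h and 6 air arrays) gave a direct test of strain. Of 15065 genes 0 (0.0%) differed in their response between BALB/c and C57BL/6 by limma, and 619 had an unadjusted p under 0.05. Clca1 responded by 3.06 ± 1.27 more in BALB/c, Retnla by 1.72 ± 0.43 more and Itln1 by 2.44 ± 0.78 more (adjusted p = 0.997, 0.767 and 0.845). The air levels behind these differences were 3.77, 8.21 and 4.12 in BALB/c and 5.21, 9.72 and 3.53 in C57BL/6, and the Af 168 h levels 10.11, 12.47 and 7.41 against 8.48, 12.26 and 4.38. Zbtb16 and Dbp differed by -2.92 ± 0.91 and -1.66 ± 0.49 (adjusted p = 0.813 and 0.778), with air levels of 7.55 and 7.31 in BALB/c against 5.62 and 5.24 in C57BL/6. These differences did not pass the correction, which does not show that the strains responded alike.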

How the data were processed

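Lung RNA was amplified with NuGEN chemistry and measured on Affymetrix HT Mouse430PM arrays, per the labels. The authors deposited log2 values of 45141 probe sets, normalized between arrays (all medians were 4.90); the normalization method is not given in the sources used here. Precision is limited by the number of arrays. Of the probe sets, 28898 had 1 gene symbol, 551 several and 15692 none in the annotation used, and 104 were controls. Each of 17097 genes was read from its probe set with the highest mean over 89 arrays. Genes above the 40th percentile (log2 4.45) on at least 4 arrays were tested (15065).

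Group means of all 89 arrays were fitted with limma 3.58.1 in R 4.3.3, and contrasts were tested two-sided with Benjamini-Hochberg adjustment over all genes, called at an adjusted p under 0.05. The 11 arrays, the 47 lists and the tests were chosen with earlier results of these data known. Named were the 15 largest rises and falls and, per list, up to 5 called members, or up to 2 of the highest level where fewer than 2 were called; gene models and accession-like names were passed over, and genes outside this rule carry a remark in the text. Arrays were doubted where Sftpd or an index of 40 strain genes went against the label. Array measures were compared by exact permutation in scipy 1.17.1. Alternatives were cyclic loess, the mean of all probe sets, no filter, only the arrays compared, a replicate block, leaving out doubted or single arrays, and the hybridization level (18 probe sets), the beta-actin difference or the muscle level (added after the data were seen) as a covariate. The fit was tested on simulated data of 15065 genes with independent noise for each gene (5 false calls among the unchanged genes). Shifts shared by the genes of an array were not simulated. Promoters came from RefSeq (GRCm38.p6). Plots used Python 3.11.15 and matplotlib 3.10.9.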

Additional observations from a re-analysis of the deposited data

Results flagged for a closer look

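In groups of 4 to 10 arrays, a single array stood apart from the rest of its group by Dixon's test in 29 of 260 groups of values (11.2%), where chance gives about 1 in 20. The values below are log2 signals of that array.

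Air replicate 1 stood apart for Clca1 at 4.74, Crisp3 at 4.19, Fxyd4 at 4.69, Ccl17 at 6.71, Nkg7 at 5.19 and Scara5 at 5.37. Air replicate 2 did so for Pcp4l1 at 5.84, replicate 3 for Zbtb16 at 4.87 and replicate 4 for the interferon gene Ifit3 at 7.20. Air replicate 6 stood apart for Ckmt2 at 10.43, Cd74 at 10.92, Dbp at 7.955, Jun at 9.53 and Dusp7 at 7.80, and for the beta-actin difference at 2.34.

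Af 168 h replicate 1 stood apart for Klhl41 at 3.99, Scgb1a1 at 13.39, Il1b at 5.99 and the chaperone Calr at 9.96. Replicate 3 did so for Atp2a1 at 4.16 and Pcp4l1 at 5.36, and replicate 4 for Pf4 at 6.52. Replicate 6 stood apart for Lyve1 at 7.03, Ifit3 at 5.54, the complement gene Hc at 9.44, Jun at 8.89, Mrc1 at 7.62, Prss16 at 6.85 and Cd300lb at 7.87.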

How the results depend on the processing

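Of 63 called genes with 1323 values over 21 alternatives, 1079 kept direction and call, 239 kept direction only and 5 turned. The 5, with the muscle level as a covariate that contains muscle genes, were Myh1 at 0.58, Tnnc2 at 0.39, Tnni2 at 0.21, Mylpf at 0.18 and Atp2a1 at 0.23. Another 64 genes were not called, and 19 of their 1344 values were. Of 987 list medians, 77 moved by more than the spread between arrays.

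The 235 calls of Af 168 h against air (122 higher, 113 lower) became 894 (336 and 558) with only these 11 arrays, 386 (192 and 194) without doubted arrays, 57 (29 and 28) with the beta-actin covariate and 96 (67 and 29) with the muscle covariate. With the mean of all probe sets 189 were lower, and 38.0% of calls were higher instead of 51.9%. Higher calls were 37.6% with only these arrays and 69.8% with the muscle covariate. Leaving out single arrays gave 71 to 379 calls (35 to 221 higher, 36 to 158 lower). The 1816 calls of Af 24 h against air became 752 with only its arrays, 680 without doubted arrays, 1129 with those left out and the hybridization covariate, 660 with the beta-actin covariate and 936 to 2381 without single arrays. The 657 calls between the times became 20, 113, 251, 989 and 295 to 852 in that order, and 1815 with the hybridization covariate. The strain difference had 0 calls under every alternative. The causes of these shifts were not tested.

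Replicate numbers are only numbers here: residuals of same-numbered air and Af 168 h arrays correlated from -0.418 to 0.401 over 5 pairs, 3 of them over 0.1, and 1 air array correlated best with its own number. With the replicate number as a block the count was 430 (219 higher, 211 lower).

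Signal near the floor limits folds of dim genes such as Clca1, and signal near the top limits those of Scgb1a1 and Sftpc.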
